A study of Mus musculus with 24 samples.

Results

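The distal and the proximal end of the mandible were compared in mouse embryos that lack Tgfbr2, the type II TGF-beta receptor, in the neural crest. The comparison rests on 6 of the 24 arrays of the study, which are all the arrays whose titles name a Tgfbr2 knockout and either end of the mandible, 3 distal and 3 proximal. RNA was taken at embryonic day 13.5 from C57B6 embryos of a cross between Wnt1cre;Tgfbr2fl/+ and Tgfbr2fl/fl mice. The groups used here are mutant distal mandible, mutant proximal mandible, control distal mandible and control proximal mandible, together with mutant distal maxilla and mutant proximal maxilla, with 3 arrays each. Mutants carry the Cre transgene and Tgfbr2fl/fl, and their stated phenotype is cleft palate and a defect of the skull vault. Controls were littermates that carried at least 1 floxed allele by the cross, and their Cre status is not given. Because the Wnt1 promoter drives Cre in neural crest and its descendants, epithelium, skeletal muscle, endothelium and blood cells of a mutant jaw keep the receptor gene. Pericytes and smooth muscle of facial vessels come largely from the crest. Nothing in the labels says that the replicates came from separate embryos or whether embryos were pooled. The p-values thus weigh differences against a spread between arrays that could in part be technical.

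The mandible forms from the first pharyngeal arch, whose mesenchyme comes mostly from the neural crest. Along its length, BMP4 from the distal epithelium and FGF8 from the proximal epithelium set up domains of homeobox genes, so that Msx genes mark the incisor region and Barx1 the molar region. Hand2 acts distally downstream of endothelin signalling, and the proximal end later carries the jaw joint, the main chewing muscles and the ossifying ramus. TGF-beta signals through TGFBR2 in these cells to control bone, cartilage and tendon formation.

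Promoters of 4 regulators stand here because their genes lie at opposite ends of the mutant mandible in the values below, Hand2 and Msx2 distally and Barx1 and Dlx1 proximally. They come from RefSeq (build GRCm38.p6), run 5' to 3' on the gene's own strand over 300 bases around the start of the gene, and carry in capitals the homeodomain core TAATTA and the E-box CATCTG.
Hand2 (chr8:57320733-57321032, plus strand): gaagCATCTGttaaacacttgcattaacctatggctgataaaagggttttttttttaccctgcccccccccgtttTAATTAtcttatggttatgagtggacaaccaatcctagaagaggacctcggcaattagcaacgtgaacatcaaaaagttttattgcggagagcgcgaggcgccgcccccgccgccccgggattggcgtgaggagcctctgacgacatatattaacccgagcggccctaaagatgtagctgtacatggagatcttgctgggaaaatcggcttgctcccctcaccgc
Msx2 (chr13:53472731-53473030, minus strand): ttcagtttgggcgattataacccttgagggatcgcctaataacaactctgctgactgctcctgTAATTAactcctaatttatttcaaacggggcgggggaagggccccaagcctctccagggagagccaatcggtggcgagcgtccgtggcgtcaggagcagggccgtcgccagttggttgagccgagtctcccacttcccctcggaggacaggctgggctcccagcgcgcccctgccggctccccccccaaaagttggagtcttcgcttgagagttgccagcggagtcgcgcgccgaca
Barx1 (chr13:48662786-48663085, plus strand): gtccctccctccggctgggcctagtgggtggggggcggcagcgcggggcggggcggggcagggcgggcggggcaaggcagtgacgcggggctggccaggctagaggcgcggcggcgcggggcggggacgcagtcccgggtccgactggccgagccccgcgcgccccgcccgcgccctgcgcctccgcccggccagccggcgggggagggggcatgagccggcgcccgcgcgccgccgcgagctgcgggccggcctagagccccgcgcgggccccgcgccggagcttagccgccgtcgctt
Dlx1 (chr2:71529195-71529494, plus strand): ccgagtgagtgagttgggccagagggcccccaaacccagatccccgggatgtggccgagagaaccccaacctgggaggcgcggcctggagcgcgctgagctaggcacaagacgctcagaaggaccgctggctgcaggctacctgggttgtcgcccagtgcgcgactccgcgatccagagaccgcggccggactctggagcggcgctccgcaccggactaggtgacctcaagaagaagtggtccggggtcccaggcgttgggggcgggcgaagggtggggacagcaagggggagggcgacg
Counted from the first printed base, Hand2 held CATCTG at base 5 and TAATTA at base 76, Msx2 held TAATTA at base 64, and neither motif nor the SMAD box CAGACA was found in the Barx1 and Dlx1 windows. With both strands searched, TAATTA stood in 3.77% of the 796 promoters found for genes higher at the distal end, 3.90% of the 872 for genes lower there and 3.27% of the 11084 for all genes tested. CATCTG stood in 17.1%, 16.9% and 14.1% of them, and CAGACA in 20.7%, 20.3% and 19.4%. In all 27025 promoters of the table the shares were 6.12%, 19.2% and 23.6%. The shares for genes higher and lower at the distal end were thus close to each other for each motif, and a match describes letters, not a binding site.

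Values are log2 intensities, and a difference of 1 is a doubling. A value after ± is the SE of the limma fit, whose spread is pooled over all 8 groups of the study. It is thus not the spread of the compared arrays alone. Mutant mandible arrays differed from control arrays in RNA quality and in sex-linked transcripts. Gapdh control probe sets at the 3' end read above those at the 5' end by 0.60, 0.04 and 0.49 in distal and 0.25, 0.06 and 0.29 in proximal mutant mandible (arrays 1 to 3), against -0.07 to 0.16 in control mandible. Mutant arrays 1 and 3 thus lay above every control mandible array at both ends, and their distal values exceeded their proximal ones. Mutant arrays 2 and 3 held both Xist, at 12.89 to 13.69, and Y-linked transcripts, at a mean of 8.34 to 9.43, at both ends, which no control mandible array did. The part of RNA quality in single results was not tested. Adding the Gapdh value of each array to the fit gave 3525 genes between the mutant mandible ends, including 2172 of the 2202 below. That value reads the Gapdh transcript alone, so this refit cannot decide how far RNA quality shaped other genes. Tgfbr2 itself read 12.35, 12.49 and 12.39 in distal and 12.38, 12.37 and 12.40 in proximal mutant mandible, a difference of 0.03 ± 0.109 (SE, adjusted p = 0.906). Nothing given here places its probes inside or outside the floxed part, so no check of the deletion or of the genotype labels comes from them. Hand2, which is restricted to the mandibular part of the first arch, stood 4.64 higher in mutant mandible than in mutant maxilla at the distal end (adjusted p = 6.38e-06) and 4.11 higher at the proximal end (adjusted p = 1.98e-05), as the jaw labels say. Between the jaws 681 genes (4.92%, 1.71% higher and 3.21% lower in mandible) passed at the distal and 788 (5.69%, 2.73% and 2.96%) at the proximal end.

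The ends of the mutant mandible were first compared over all genes. At the distal end 1048 genes were higher and 1154 lower, 2202 of 13850 tested or 15.9% (7.57% higher and 8.33% lower; limma, adjusted p under 0.05). Of these, 535 differed by at least 1 on the log2 scale, 202 higher and 333 lower, and 126 by at least 2, 29 higher and 97 lower. Large differences therefore lay more often on the proximal side. The sign was the same in all 3 same-numbered pairs for 2197 of the 2202 genes, and the 3 distal and 3 proximal arrays did not overlap for 2123, which the call itself favours. Over all 13850 genes they did not overlap for 3884 (28.0%). The median difference over all tested genes was 0.019. Same-numbered arrays of the 2 ends deviated together, and with the number as a block 3943 genes passed, 2018 higher and 1925 lower, including 2200 of the 2202. Leaving out 1 array at a time gave 1539 to 2689 genes, and leaving out replicate 1 or replicate 3 at both ends gave 1383 and 1189.

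In control mandible, which shares no array with the mutant one, 864 genes were higher and 980 lower at the distal end, 1844 or 13.3% (6.24% higher and 7.08% lower), and 3298 with the replicate block. Both genotypes called 1329 genes in the same direction, 639 higher and 690 lower, which is 60.4% of the mutant calls and 72.1% of the control calls. The 2 comparisons share the estimate of each gene's spread, so a gene of small spread is favoured for a call in both. A single gene, Fbln5, was called in opposite directions. Among the 2202 genes called in the mutant, 2158 (98.0%) had the same sign in controls, against 76.1% of all tested genes. Their median absolute difference was 0.59 in the mutant, and their median in controls along the mutant direction was 0.44. Among the 1844 genes called in controls, 1812 (98.3%) had the same sign in the mutant. Their median absolute difference was 0.59 in controls, and their median in the mutant along the control direction was 0.55. In each case the genotype that chose the genes had the larger median, which the choice itself favours. Across all tested genes the differences of the 2 genotypes had a Pearson correlation of 0.88 and a Spearman correlation of 0.74, where genes are not independent replicates. The plot of mutant against control differences shows most called genes near the line of equal values.

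**Figure D1:**
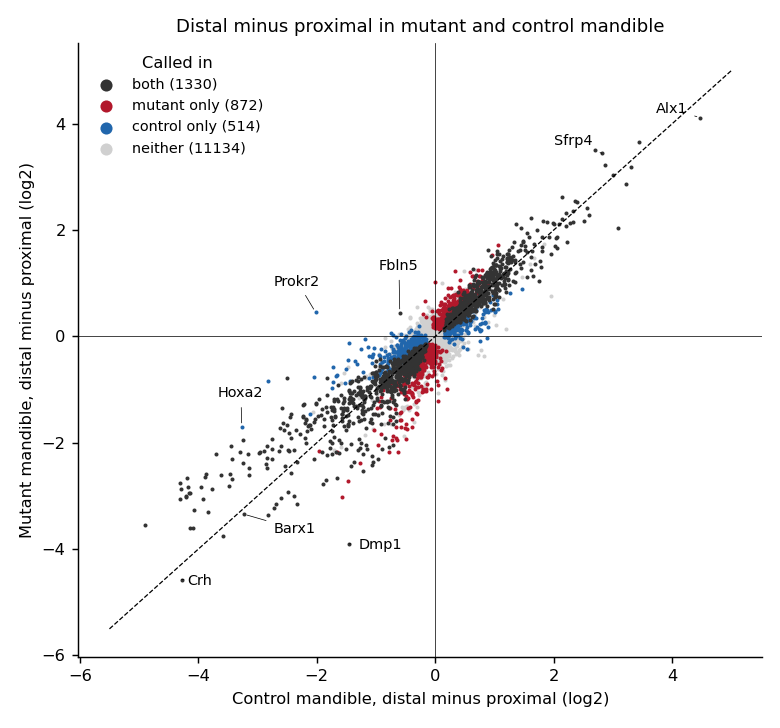
Distal minus proximal difference (log2) of each of 13850 genes in mutant mandible (vertical axis) against control mandible (horizontal axis), 3 arrays per end and genotype, coloured by where the gene was called. The dashed line marks equal differences. Alx1 and Crh lie near it at 4.11 and -4.57 in the mutant, Fbln5 and Prokr2 lie above it and Dmp1 below it.

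The largest rise at the distal end was Alx1, a homeobox gene of craniofacial neural crest. It read 11.59, 12.28 and 11.57 in distal and 7.77, 7.63 and 7.71 in proximal mutant mandible. Every distal array lay far above every proximal one, a 17.3-fold difference (log2 4.11 ± 0.566, adjusted p = 4.59e-05). In controls it was 4.48 ± 0.566. In tissue pieces like these, fewer cells of a type and less RNA per cell cannot be told apart. Shh, the hedgehog ligand made by oral and dental epithelium, read 10.23, 10.76 and 10.92 in distal and 7.47, 7.24 and 7.50 in proximal mutant arrays. These groups did not overlap either, and the 9.39-fold difference (3.23 ± 0.285, adjusted p = 5.61e-07) stood beside 2.86 in controls. Sfrp4, a secreted WNT modulator, was 10.9-fold higher (3.44 ± 0.292). Pax3, a paired-box gene of neural crest and muscle progenitors, was higher by 2.54 ± 0.447 and Hey2, a Notch effector, by 2.35 ± 0.253.

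Several of the 15 largest rises belong to surface or dental epithelium. Odam, an ameloblast protein, was higher by 3.50 ± 0.413, the keratin Krt6a by 3.04 ± 0.39, and the desmosomal cadherins Dsg1b and Dsg1a by 2.54 ± 0.394 and 2.28 ± 0.479. The thioesterase Them5 (3.65 ± 0.292), the kelch protein Klhl14 (3.18 ± 0.36), Slain1 (2.61 ± 0.344), Dynap (2.32 ± 0.411) and the uncharacterised 4930426D05Rik (2.87 ± 0.414) complete the list with Hpse2. Hpse2, an inhibitor of heparanase, had distal arrays at 8.71 to 8.91 and proximal arrays at 6.14 to 6.63. Its difference of 2.42 ± 0.731 passed at adjusted p = 0.0286, which ranged from 0.000105 to 0.512 over the alternatives and lay at 0.0564 to 0.0887 without any single array but distal array 2. The other 14 passed at adjusted p of 4.8e-07 to 0.00232, and all 15 were higher in controls as well, by 2.14 to 4.48.

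The largest fitted fall was that of Crh, which encodes corticotropin-releasing hormone. It read 4.42, 3.68 and 4.29 in distal and 8.47, 9.44 and 8.20 in proximal mutant mandible. The distal arrays were near the bottom of the measured range, which runs from 3.08 to 15.01, and the difference was -4.57 ± 0.402 (adjusted p = 5.61e-07), beside -4.28 in controls. The files give no detection call, so whether the distal signal was above background is not known, and the size is not an exact fold. Shisa3, an inhibitor of WNT and FGF receptor maturation, fell by 3.75 ± 0.408 and Meox2, a homeobox gene of muscle development, by 3.14 ± 0.29. Nell1, a secreted protein that promotes bone formation, fell by 3.36 ± 0.377 and the transcription factor gene Sim2 by 3.31 ± 0.436. Kcnd2, a potassium channel, and Slitrk1, a synaptic adhesion gene, fell by 3.22 ± 0.244 and 3.15 ± 0.235. Cxcl13, a chemokine of B cells, fell by 3.61 ± 0.534. Skeletal muscle contributed Myh8 (-3.61 ± 0.442), Tnnc2 (-3.55 ± 0.504), Myl1 (-3.06 ± 0.438) and Smpx (-3.05 ± 0.45), parts of the contractile apparatus or its anchoring. The remaining members of the 15 are Dmp1, Barx1 and Dlx1as, the antisense transcript of Dlx1, at -3.27 ± 0.512. In controls these 15 genes were lower by 1.45 to 4.91, Dmp1 being the least so.

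Distal mandibular regulators are transcription factors and signals known to act at the tip of the arch. This list, like the others, was chosen with earlier results of these data known. Of 11 tested, 7 were higher at the distal end and 0 lower (median 0.69, against 0.019 over all genes), and in controls 7 were higher and 1 lower (median 0.90). Hand2, a basic helix-loop-helix factor, read 13.51, 13.33 and 13.50 in distal and 11.54, 11.02 and 11.31 in proximal mutant arrays. The ends did not overlap and differed 4.46-fold (2.16 ± 0.454, adjusted p = 0.00231), beside 1.88 in controls. Msx2, a homeobox target of BMP, read 9.84, 9.54 and 9.73 in distal and 8.07, 8.0 and 8.64 in proximal mutant arrays. Proximal array 3 was the highest of its group, and the difference was 1.47 ± 0.343 (adjusted p = 0.00524).

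Bmp4, the distal ligand, was 2.32-fold higher at the distal mutant end (1.21 ± 0.198, adjusted p = 0.000241), with distal arrays at 11.92 to 12.12 and proximal arrays at 10.69 to 10.97. Isl1, a LIM homeobox gene of the distal arch, was higher by 1.54 ± 0.336 (adjusted p = 0.00313). Alx4 and Hand1, relatives of Alx1 and Hand2, were higher by 0.69 ± 0.167 and 0.52 ± 0.118. Msx1 (0.61), Prrx2 (0.38), Dlx3 (-0.40) and Dlx4 (-0.51) did not pass in the mutant. Leaving out arrays gave 5 to 7 higher members.

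Proximal mandibular regulators divided between the ends. Of 16 tested, 4 were lower and 2 higher at the distal end (median -0.18), beside 5 lower and 2 higher in controls (median -0.52). Barx1, the homeobox gene of the molar field, read 9.33, 8.30 and 8.33 in distal and 12.15, 11.82 and 12.00 in proximal mutant mandible. Distal array 1 was the highest of its end and still lay over 2 below the lowest proximal array. The difference was -3.34 ± 0.236 (adjusted p = 1.42e-07), beside -3.24 in controls. Nr2f1, an orphan nuclear receptor (COUP-TFI), read 10.16, 9.86 and 9.97 in distal and 12.20, 12.34 and 12.56 in proximal arrays, a difference of -2.37 ± 0.2 beside -2.34 in controls.

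Dlx1, a distal-less homeobox gene of the proximal arch, read 9.31, 8.73 and 8.92 in distal and 10.42, 10.48 and 10.82 in proximal mutant arrays. These groups were apart by over 1, and the difference was -1.58 ± 0.245 (adjusted p = 0.000148), beside -1.57 in controls. Nr2f2, the relative of Nr2f1, fell by 1.28 ± 0.168. Emx2, a homeobox gene, and Pou3f3, a POU factor of the upper jaw, were higher distally, by 1.31 ± 0.17 and 0.71 ± 0.135. The Pou3f3 call was lost with distal array 2 and proximal array 2 alone and with the mean of all its probe sets (adjusted p = 0.0607, and 0.000368 to 0.223 over the alternatives). Dlx2 (-0.13), Pitx1 (-0.13), Gsc (-0.61) and Six2 (-1.20) did not pass. The dot plot of patterning genes shows the same order of ends in both genotypes for the 8 genes drawn.

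**Figure D2:**
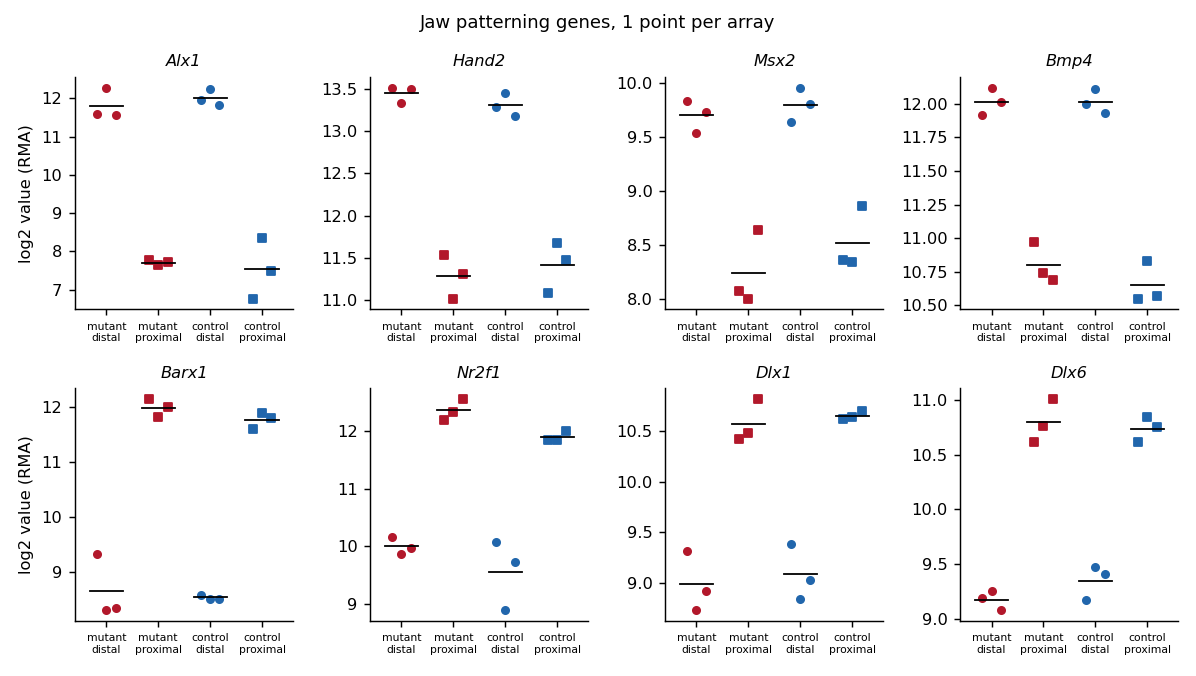
Log2 value of 8 jaw patterning genes on each mandible array, with 3 arrays per group and a line at the group mean (red mutant, blue control, circles distal, squares proximal). Each panel has its own vertical axis, which does not start at 0. Alx1, Hand2, Msx2 and Bmp4 lie higher at the distal end and Barx1, Nr2f1, Dlx1 and Dlx6 lower, in mutant and control alike.

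In the endothelin and ventral arch programme, which sets lower jaw identity, 3 of 11 tested genes were higher and 2 lower at the distal mutant end, beside 3 and 3 in controls. Dlx6, a distal-less gene induced by endothelin, read 9.19, 9.25 and 9.08 in distal and 10.62, 10.76 and 11.01 in proximal mutant arrays (-1.62 ± 0.228, adjusted p = 5.54e-05). Its partner Dlx5 was lower by 1.16 ± 0.185 in distal arrays. Both lay on the opposite side from Hand2, their known target. Ece1, the enzyme that activates endothelin, was higher by 0.49 ± 0.101, while the ligand Edn1 (0.05) did not pass and its receptor Ednra was not analysed here. Of 13 genes listed as maxillary regulators, 3 were higher and 5 lower, beside 3 and 5 in controls. The higher ones were Alx1, Pax3 and Pou3f3, and the lower ones Nr2f1, Nr2f2, Sim2, Meox2 and the homeobox gene Shox2 (-0.59). Alx1 also stands among the distal mandibular regulators above. Pou3f3, Nr2f1 and Nr2f2 also stand among the proximal ones, so these calls are counted in both lists.

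In the tooth field list, 9 of 21 tested genes were higher and 2 lower (median 0.66), beside 8 and 2 in controls (median 0.79). Apart from Shh, Msx2, Bmp4 and Isl1, the higher members were Sostdc1, a BMP and WNT antagonist (1.23 ± 0.272), Lef1, a nuclear effector of WNT (1.12 ± 0.156), Edaradd and Edar of the ectodysplasin pathway (0.81 ± 0.151 and 0.67), and Fgf3 (0.74 ± 0.14). Lef1 read 11.62, 11.63 and 11.62 in distal and 10.31, 10.41 and 10.78 in proximal mutant arrays. The distal arrays of Lef1 lay close together and the proximal ones spread more widely, with no overlap. The lower members were Barx1 and Dlx1.

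WNT signalling had the most called members of the pathway lists, of which it was among the longest. Of its 33 tested, 13 were higher and 4 lower at the distal mutant end (median 0.18), beside 14 and 5 in controls (median 0.42). Shorter lists had similar shares, with 3 higher and 5 lower of 16 for retinoic acid and 6 and 3 of 19 for FGF signalling. Over all genes 7.57% were higher and 8.33% lower. Wnt5a, a ligand of outgrowth, read 12.99, 13.17 and 13.02 in distal and 11.64, 11.58 and 11.49 in proximal mutant arrays. The ends did not overlap and differed 2.81-fold (1.49 ± 0.13, adjusted p = 5.61e-07), beside 1.26 in controls. Epithelial ligands were among the higher members, with Wnt9b at 1.30, Wnt3 at 1.19, Wnt6 at 1.11, Wnt7b at 1.05 and Wnt4 at 1.01. So were the feedback genes Nkd1 (1.08 ± 0.145) and Axin2 (0.78). On the proximal side were the secreted antagonists Sfrp2 (-1.09 ± 0.105) and Sfrp1 (-1.16 ± 0.273), the receptor Fzd4 (-0.85 ± 0.148) and the ligand Wnt2 (-0.92 ± 0.236). Sfrp4 thus stood opposite to its 2 relatives. The Wnt2 call (adjusted p = 0.00993) was lost without distal array 3 (0.0594), and its adjusted p ranged from 0.00341 to 0.259 over the alternatives.

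Hedgehog signalling had 5 higher members of 17 and 1 lower, beside 5 and 0 in controls. Besides Shh these were the transcription factors Gli2 (0.69 ± 0.0618, adjusted p = 6.96e-07) and Gli3 (0.45 ± 0.0963), the antagonist Hhip (0.97 ± 0.223) and the co-receptor Gas1 (0.20). The reporters of pathway activity Gli1 (0.29) and Ptch1 (0.22) did not pass in the mutant. Ihh, the ligand of growing cartilage and bone, was lower (-1.0 ± 0.225), with distal arrays at 6.22 to 6.70 and proximal arrays at 7.07 to 7.82.

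BMP signalling had 4 higher members of 25 and 6 lower, beside 5 and 6 in controls. On the proximal side lay Gdf5, a joint ligand (-2.16 ± 0.363), the receptor Bmpr1b (-1.09 ± 0.161), and the extracellular modulators Bmper (-1.89 ± 0.248), Chrdl1 (-1.45 ± 0.237) and Nog (-0.56), together with the ligand Bmp2 (-0.57). Gdf5 read 6.50, 6.56 and 7.12 in distal and 9.08, 8.50 and 9.09 in proximal mutant arrays, so the ends lay over 1 apart. Beside Bmp4 and Sostdc1, the higher calls Twsg1 (0.30) and Smad5 (0.15) had another bright probe set on the other side of 0 (-0.001 and -0.158). Without proximal array 1 or distal array 3 the count of higher members was 2.

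FGF signalling had 6 higher members of 19 and 3 lower (7 and 5 with the block), beside 4 and 5 in controls. The receptors went separate ways, with Fgfr1 (0.61 ± 0.0696) and Fgfr2 (0.61 ± 0.0819) higher and Fgfr4, a receptor of muscle progenitors (-1.41 ± 0.287), lower at the distal mutant end. Fgf7, a mesenchymal ligand, was lower by 1.18 ± 0.205, with 8.05 to 8.63 in distal and 9.35 to 9.78 in proximal arrays. Etv4, a target of FGF, was higher by 0.79 ± 0.181, although the mean of all its probe sets gave adjusted p = 0.0881 (0.000268 to 0.458 over the alternatives). Fgfr3, a receptor of cartilage, differed by -0.99 ± 0.325 at adjusted p = 0.0439, which exceeded 0.05 without any single array (0.0576 to 0.163, and 0.00583 to 0.737 over the alternatives). Fgf8 was not analysed here.

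Retinoic acid genes numbered 3 higher and 5 lower of 16, beside 2 and 5 in controls. Aldh1a2, which makes retinoic acid, read 9.36, 8.81 and 9.03 in distal and 11.10, 10.98 and 11.14 in proximal mutant arrays. The ends of Aldh1a2 lay well over 1 apart, and the difference of -2.01 ± 0.135 had the smallest adjusted p of all genes in the mutant mandible (1.35e-07). Aldh1a3, a second synthetic enzyme (-1.23 ± 0.274), the carrier Rbp4 (-1.49 ± 0.213) and the receptor Rxrg (-1.10 ± 0.216) were also lower. Cyp26b1, which degrades retinoic acid, was higher (1.20 ± 0.263), and so was Rdh10, an enzyme of its synthesis from retinol (0.50 ± 0.116). Enzymes of synthesis thus lay on both sides. In controls the differences were -1.73 for Aldh1a2 and 1.16 for Cyp26b1. With only the arrays of the mutant mandible fitted, 1 member of the list was higher.

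Among TGF-beta ligands, receptors and regulators, the share called was near the 15.9% over all genes. Of 34 tested, 4 were higher and 1 lower, or 8 and 1 with the replicate block (median 0.09), beside 7 and 2 in controls. Smad7, an inhibitor induced by the pathway, read 10.34, 10.30 and 10.39 in distal and 9.64, 9.70 and 9.73 in proximal mutant arrays. The ends did not overlap and differed by 0.65 ± 0.0785 (adjusted p = 1.19e-05), beside 0.61 in controls. The activin receptor Acvr1b was higher by 0.63 ± 0.0818 and the latency protein Ltbp1 by 0.51 ± 0.114, the Ltbp1 call being lost with the mean of its probe sets (adjusted p = 0.153, and 0.000851 to 0.153 over the alternatives). Tgfb3, a ligand, differed by -0.62 ± 0.181 (adjusted p = 0.0244), and its call was lost without distal array 2 or 3 or proximal array 1 or 3 (0.0507 to 0.109, and 5.79e-05 to 0.205 over the alternatives). Tgfb1 (0.20), Tgfb2 (-0.13), Tgfbr1 (-0.06) and Tgfbr3 (-0.14) did not pass.

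Of 26 genes known to respond to TGF-beta, 2 were higher and 5 lower at the distal mutant end, or 4 and 6 with the block, beside 3 and 4 in controls. Tgfbi, a matrix protein, was lower by 0.83 ± 0.172, the matricellular Ccn1 by 0.71 ± 0.16 and the smooth muscle actin Acta2 by 0.91 ± 0.212. Snai1, a transcription factor of migrating crest, was higher by 0.80 ± 0.152 together with Smad7. Acta2 read 12.44, 11.99 and 12.47 in distal and 13.16, 13.24 and 13.23 in proximal mutant arrays, with no overlap. The count of lower genes was 3 without distal array 3 or proximal array 2. It ranged from 1 to 6 over all left-out arrays, singly or as a replicate at both ends.

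Neural crest mesenchyme factors numbered 7 higher and 1 lower of 19, beside 10 and 2 in controls. Tfap2c and Tfap2a, AP-2 factors of crest and epithelium, were higher by 1.67 ± 0.196 and 1.51 ± 0.134, and Tcf4 by 0.55 ± 0.0866. Foxp2, a forkhead gene, was lower by 1.37 ± 0.304. Extracellular matrix genes numbered 7 higher and 5 lower of 35, beside 3 and 5 in controls. Fbln2 (1.00 ± 0.201), the collagen Col26a1 (0.99 ± 0.158) and the proteoglycan Bgn (0.50 ± 0.0921) were higher, and the matricellular Smoc2 (-1.77 ± 0.165) and Vit (-1.74 ± 0.212) lower. Smoc2 read 10.85, 10.40 and 10.48 in distal and 12.25, 12.31 and 12.49 in proximal mutant arrays, so the ends lay well apart.

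Cell cycle genes gave 1 higher member of 30, Mki67, a proliferation marker (0.32 ± 0.0573), and with the replicate block 10 higher and 2 lower, beside 1 and 1 in controls. The other cell cycle genes lay between -0.30 and 0.27. Of 28 hypoxia and glycolysis genes, 3 were higher and 2 lower (4 and 4 with the block), a share near the 15.9% over all genes, among them the glucose transporter Slc2a1 (0.66 ± 0.119) and the collagen prolyl hydroxylase P4ha1 (-0.71 ± 0.155). Among 20 immediate early and heat shock genes, which respond to handling of tissue, 4 were higher and 3 lower. Egr3 was higher by 2.05 ± 0.49 and Egr1 lower by 1.04 ± 0.216, so these genes did not move one way. Another bright probe set of Egr3 differed by 0.22. The adjusted p of Egr3 ran from 0.000646 to 0.0923 over the alternatives that kept at least 2 arrays per end. Fosl2, also called higher (0.82), had another bright probe set at -0.04.

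**Figure D3:**
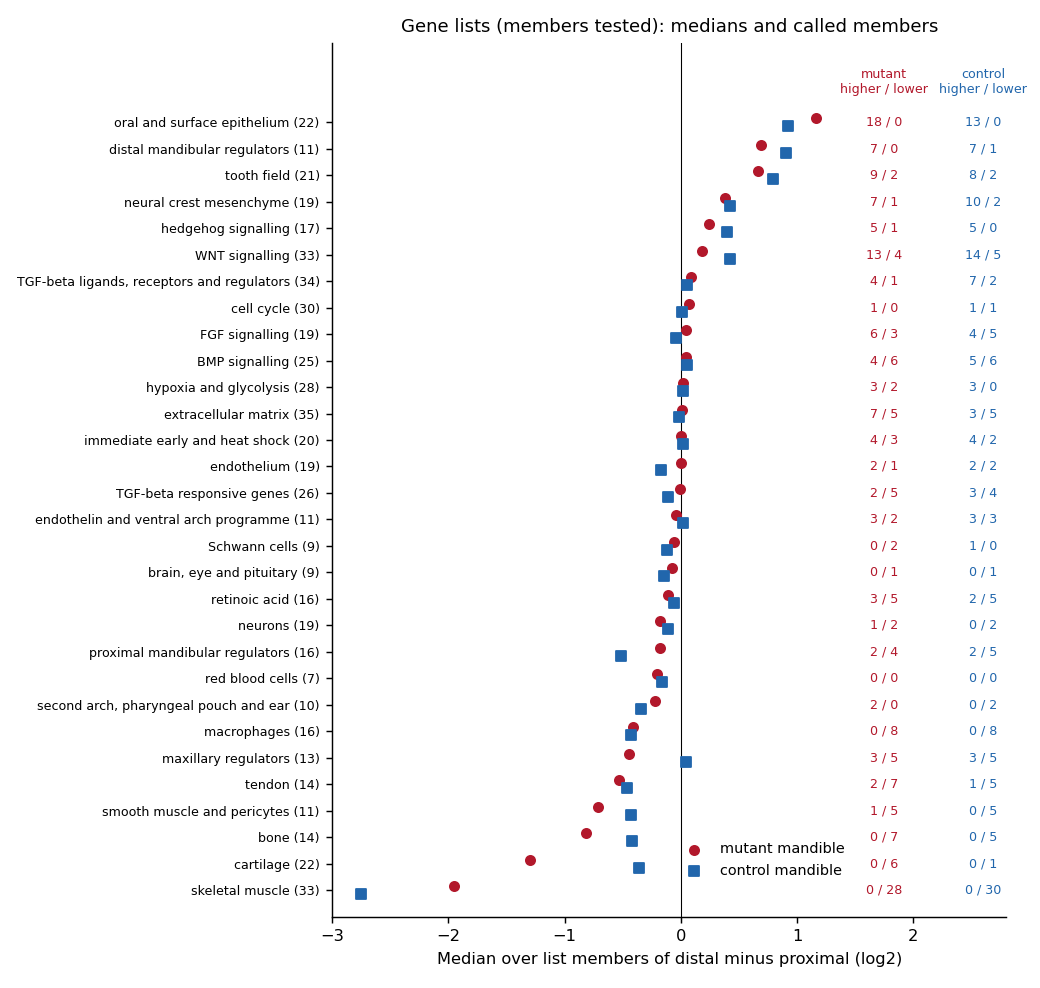
Median distal minus proximal difference (log2) of each gene list in mutant mandible (red circles) and control mandible (blue squares), with the number of members tested in brackets and, at the right, the members called higher and lower. In the mutant, epithelium has the highest median (1.16) and skeletal muscle the lowest (-1.95), and cartilage lies at -1.30, against -0.36 in controls.

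Markers of some cell types differed between the ends in most of their members. Of 22 markers of oral and surface epithelium, which keeps Tgfbr2, 18 were higher and 0 lower at the distal mutant end (median 1.16), beside 13 and 0 in controls (median 0.92). The mean level of the list was 10.53, 10.46 and 10.71 in distal and 9.33, 9.46 and 9.58 in proximal mutant arrays. No proximal array reached a distal one. Krt14, a keratin of basal cells, was 3.65-fold higher (1.87 ± 0.16, adjusted p = 5.53e-07), Krt5 3.44-fold and the laminin chain Lamb3 3.26-fold. Dsp, a desmosome component, was higher by 1.23 ± 0.122. Shh, Odam and the epithelial WNT ligands above moved with these markers, and the part of the epithelial share in those differences was not tested. Leaving out arrays gave 14 to 18 higher members.

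Skeletal muscle markers ran the other way, with 0 higher and 28 lower of 33 tested in the mutant (median -1.95), beside 0 and 30 in controls (median -2.75). The mean level of the list was 8.12, 8.08 and 7.94 in distal and 9.90, 10.05 and 9.92 in proximal mutant arrays, against 6.87 to 7.98 in distal and 9.86 to 10.49 in proximal control arrays. The ends thus lay over 1 apart in every array of the mutant, and 2 of the 3 distal control arrays lay below all distal mutant ones. Tnnc2, fast troponin C, read 7.57, 8.52 and 6.72 in distal and 10.96, 11.46 and 11.04 in proximal mutant arrays. The differences of Tnnc2 were -3.55 ± 0.504 in the mutant and -4.91 ± 0.504 in controls. Tnnc1, slow troponin C, was lower by 2.66 ± 0.346 and Myod1, the muscle determination factor, by 1.25, while Myf5 (-0.84) and Lbx1 (0.19) did not pass. The genotype difference was positive for 33 of 33 markers (8 at unadjusted p under 0.05), and 0 of them passed. Leaving out arrays gave 22 to 28 lower members.

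Cartilage markers were lower at the distal mutant end in 6 of 22 tested and higher in 0 (median -1.30), beside 1 and 0 in controls (median -0.36). The mean level of the list was 10.08, 9.71 and 9.47 in distal and 11.13, 10.84 and 11.19 in proximal mutant arrays, with no overlap. In control arrays it was 8.82, 10.78 and 9.99 distally and 9.90, 10.92 and 10.51 proximally, where the ends overlapped and set 1 was low at both. Within each same-numbered pair the distal array was the lower one, in controls as in the mutant. Epyc, a small proteoglycan, was lower by 2.56 ± 0.572 (adjusted p = 0.00371) and Comp, a matrix glycoprotein, by 1.84 ± 0.451 (adjusted p = 0.00748). Sox9 (-0.68), Col2a1 (-1.27) and Acan (-1.61), which define cartilage, did not pass. Leaving out distal array 3 left 2 called genes, each other array but distal array 2 left 3, distal array 2 left 4, replicate 3 at both ends left 0, the block gave 7, and a fit of the 6 mutant mandible arrays alone gave 18. The genotype difference was negative for 21 of 22 markers, and 0 passed.

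Bone markers were lower in 7 of 14 tested and higher in 0 (median -0.82), beside 5 and 0 in controls (median -0.42). Phex, a peptidase of bone cells, read 8.36, 8.34 and 7.49 in distal and 10.68, 10.99 and 10.84 in proximal mutant arrays (-2.78 ± 0.394, adjusted p = 6.07e-05). Ifitm5, a protein of osteoblasts, was lower by 2.66 ± 0.299 and the channel gene Panx3 by 2.04. Sp7, the osteoblast transcription factor osterix, was lower by 1.44 in the mutant and by 0.33 in controls, where it did not pass. Collagen genes Col1a1 (-0.48) and Col1a2 (-0.14) did not pass, and Runx2 and Spp1 were not analysed here. Leaving out arrays gave 6 to 9 lower members.

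Tendon markers were lower in 7 of 14 tested and higher in 2 (median -0.53), beside 5 and 1 in controls (median -0.46). Thbs2, a matricellular protein, was lower by 1.59 ± 0.141 and Col12a1, a fibril-associated collagen, by 0.46 ± 0.104, while Fmod, a small proteoglycan, was higher by 0.95 ± 0.228. Scx, the transcription factor of tendon progenitors, read 5.53, 6.07 and 5.70 in distal and 6.31, 6.79 and 6.55 in proximal mutant arrays, against 6.03 to 6.94 in distal and 8.02 to 8.34 in proximal control arrays. Each mutant proximal array was thus below each control proximal one. Its difference was -0.78 ± 0.209 in the mutant (adjusted p = 0.0133) and -1.83 in controls. The mutant call was lost without distal array 1 or 3 or proximal array 2 (0.0521 to 0.0739, and 0.00155 to 0.434 over the alternatives). Without distal array 3 the list had 3 lower members, and without proximal array 2 it had 4.

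Markers of other cells the pieces could hold differed in part. Macrophage markers were lower in 8 of 16 and higher in 0, as in controls, with Lyz2, a lysozyme (-0.84 ± 0.189), and C1qa of the complement system (-0.66 ± 0.156) among them. The macrophage count was 4 without proximal array 3 and 5 without distal array 2 or 3 or with the mutant mandible arrays fitted alone. Over all left-out arrays, singly or as a replicate at both ends, it ranged from 3 to 9. Of 11 smooth muscle and pericyte markers, 5 were lower and 1 higher, with Rgs5, a pericyte marker, at -2.09 ± 0.335 and the channel subunit Kcnj8 at -1.33 ± 0.264. Neuronal markers gave 1 higher (Isl1) and 2 lower of 19, the receptor Ntrk3 (-2.92 ± 0.282) and the neurofilament Nefl (-1.55 ± 0.382). Schwann cell markers gave 2 lower of 9, S100b (-2.37 ± 0.497) and Fabp7 (-1.05 ± 0.273), the Fabp7 call being lost without distal array 1 or proximal array 2 (adjusted p = 0.0556 and 0.0815, and 0.000652 to 0.184 over the alternatives). S100b is also a gene of cartilage. Of 19 endothelial markers, 2 were higher and 1 lower, with Sox18 at 1.16 ± 0.135, and 0 of 7 red blood cell markers passed. The shares called among neuronal, Schwann cell and endothelial markers were near the 15.9% over all genes. In controls 2 neuronal markers were lower and 0 higher, and 1 Schwann cell marker was higher and 0 lower. Endothelial markers in controls gave 2 higher and 2 lower. Of 9 brain, eye and pituitary markers 1 was lower, Cryab, a small heat shock protein of lens and muscle (-1.68), as was 1 in controls. That share was also near the one over all genes.

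Tissue from beyond the first arch was looked for with genes of the second arch, pharyngeal pouches and ear. Of 10 tested, 2 were higher in the mutant and 0 lower, a share near the 15.9% over all genes, against 0 and 2 in controls. With the mutant mandible arrays fitted alone, 1 was higher and 2 lower. Hoxa5 depended on the probe set. The one used differed by 0.08 in the mutant, and another bright one by -1.24 in the mutant and -1.71 in controls. Hoxa2, which is active in the second arch and not the first, read 4.86, 4.32 and 4.64 in distal and 5.33, 5.52 and 8.04 in proximal mutant arrays. In controls it read 4.62, 4.47 and 4.64 distally and 9.08, 5.84 and 8.61 proximally. Proximal array 3 of the mutant and proximal arrays 1 and 3 of the controls stood far above the rest, so the amount of this signal varied between proximal samples. Its difference was -1.69 ± 0.692 in the mutant (adjusted p = 0.112) and -3.27 ± 0.692 in controls (adjusted p = 0.00303), and its part in other proximal values was not tested. The 2 higher genes were Tbx1 (0.78) and Pax1 (0.91), both of the pharyngeal pouches. The Tbx1 call was lost without distal array 3 (adjusted p = 0.0757, and 0.00224 to 0.63 over the alternatives). The Pax1 call was lost without distal array 1 or 3 or proximal array 2 or 3 (0.156 to 0.177, and 0.0143 to 0.639 over the alternatives).

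The next question was whether the difference between the ends depended on genotype. For the mutant minus control difference of the effect, 0 of 13850 genes passed (0%, limma), with the smallest adjusted p at 0.136, and 552 genes (3.99%) had an unadjusted p under 0.05. The median SE was 0.16, larger than the 0.113 of a single comparison, as a difference of 2 such comparisons has. The fixed block also gave 0 genes (1275 at unadjusted p under 0.05), the set as a random block gave 7 (Dmp1, Grem1, Atp1b4, Fbln5, Ldlrad4, Prokr2 and Lpar3) and a fit of the 12 mandible arrays alone gave 4 (Prokr2, Grem1, Atp1b4 and Rasl11b). The 95% intervals of leading patterning genes spanned 0, from -0.80 to 0.59 for Barx1, -0.62 to 0.56 for Nr2f1 and -1.07 to 1.62 for Hand2. That of Alx1 ran from -2.04 to 1.31, so its interval held differences of more than 1 in either direction.

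The 3 genes with the smallest p in each direction are given as values that did not pass in the fit over all 24 arrays. With the set as a random block, 5 of the 6 passed, Dmp1 and Grem1 at adjusted p = 0.0267 each, Fbln5 at 0.0366, Prokr2 at 0.0424 and Lpar3 at 0.0488. Prokr2, the receptor for prokineticins, read 7.16, 7.03 and 7.32 in distal and 6.28, 6.74 and 7.13 in proximal mutant arrays, against 6.95, 6.99 and 7.28 in distal and 9.03, 9.28 and 8.97 in proximal control arrays. Only the control proximal group stood apart, and the difference between genotypes was 2.48 (95% interval 1.51 to 3.45, adjusted p = 0.136). Grem1, a BMP antagonist, showed the same arrangement, with mutant means near 8 at both ends and control proximal arrays at 9.06 to 9.15, a difference of 1.34 (0.83 to 1.84, adjusted p = 0.136). In the proximal mandible itself both were lower in the mutant than in controls, with a difference of -2.38 for Prokr2 (adjusted p = 0.000712) and -1.08 for Grem1 (adjusted p = 0.00228), while at the distal end neither passed (0.10 and 0.26). Over the alternatives the adjusted p of both ran from 0.00472 to 1.

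Fbln5, an elastic fibre protein, read 10.03, 9.87 and 9.67 in distal and 9.14, 9.42 and 9.65 in proximal mutant arrays, against 10.61, 10.64 and 10.51 in distal and 11.22, 11.21 and 11.13 in proximal control arrays. All 6 mutant arrays lay below all 6 control arrays, and the order of the ends differed between genotypes. The end difference was 0.45 ± 0.129 in the mutant (adjusted p = 0.021) and -0.60 ± 0.129 in controls (adjusted p = 0.00356). The mutant call was lost without distal array 1 or proximal array 1 or 2 (0.0526 to 0.137, and 0.00597 to 0.383 over the alternatives). The difference between genotypes was 1.05 (0.67 to 1.43, adjusted p = 0.136, and 0.0341 to 1 over the alternatives).

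Dmp1, a matrix protein of osteocytes and dentine, read 6.25, 5.96 and 6.22 in distal and 9.19, 10.23 and 10.71 in proximal mutant arrays, against 6.28, 5.78 and 6.19 in distal and 7.11, 8.10 and 7.38 in proximal control arrays. The genotypes overlapped distally and not proximally. Its end difference was -3.90 ± 0.321 in the mutant (adjusted p = 5.11e-07) and -1.45 ± 0.321 in controls (adjusted p = 0.00429), a difference between genotypes of -2.45 (-3.40 to -1.50, adjusted p = 0.136). Without mutant proximal array 1, the lowest of its group, this difference of Dmp1 passed (-2.88, adjusted p = 0.0122, and 0.0122 to 1 over the alternatives). Lpar3, a receptor for lysophosphatidic acid, gave -1.33 (-1.87 to -0.80, adjusted p = 0.147, and 0.0488 to 1 over the alternatives) and Adgrd1, an adhesion receptor, -1.31 (-1.95 to -0.68, adjusted p = 0.547, and 0.0774 to 1). In proximal mandible Dmp1, Lpar3 and Adgrd1 were higher in the mutant, by 2.51, 1.02 and 1.14 (adjusted p = 0.000347, 0.00482 and 0.00629), and 742 genes (5.36%, 2.85% higher and 2.51% lower) passed there between genotypes, against 124 (0.895%, 0.361% and 0.534%) at the distal end. Those counts were not tested against each other.

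**Figure D4:**
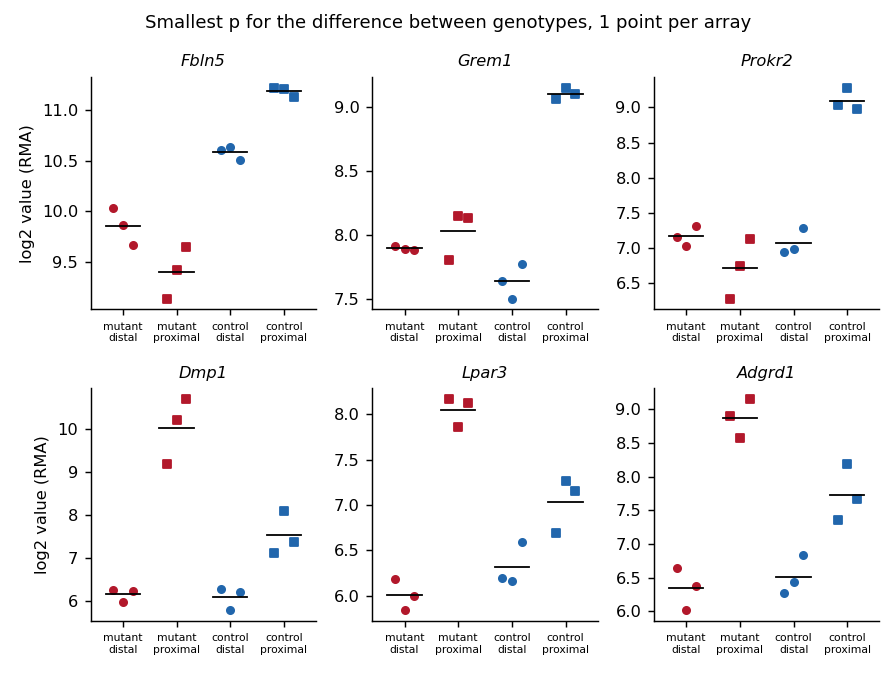
Log2 value on each mandible array of the 3 genes with the smallest p in each direction for the difference between genotypes, 3 arrays per group with a line at the mean (red mutant, blue control, circles distal, squares proximal). No gene passed after adjustment in the fit over all 24 arrays. Axes do not start at 0. For all 6 genes the proximal groups lie further apart by genotype than the distal ones, and Fbln5 is lower in the mutant at both ends.

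The 5 largest rises and 5 largest falls of control mandible that were not called in the mutant are given here. Lrrtm4, a synaptic adhesion gene, differed by 0.89 in the mutant (adjusted p = 0.141) and 1.47 in controls, Tac1, which encodes substance P, by 0.81 and 1.25, Rhpn2 by 0.52 and 1.05, Chdh, of choline metabolism, by 0.69 and 1.05, and Lgi2 by 0.61 and 1.04. On the other side were Hoxa2, Fabp4, a fatty acid binding protein (-0.84 and -2.82), Hmx1, a homeobox gene (-1.47 and -2.11), Tcf24 (-0.75 and -2.05) and Prokr2 (0.46 and -2.02). Except for Prokr2, each had the control sign in the mutant. Their genotype differences did not pass, and Lrrtm4 and Chdh were called in the mutant with the replicate block (adjusted p = 0.0167 and 0.0471). The control calls of Hmx1, Lgi2 and Lrrtm4 were each lost without 1 of several single arrays: for Hmx1 distal 1 or 2 or proximal 1 or 3 (adjusted p = 0.0659 to 0.15), for Lgi2 proximal 1 or 3 (0.0549 and 0.057) and for Lrrtm4 distal 1 or proximal 1 (0.0529 and 0.0701). Fabp4 was near the bottom of the range in every mutant array (4.46 to 6.07) and reached 8.45 in control proximal mandible.

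The last question was whether the mandible's end difference resembled that of the maxilla in mutants. In mutant maxilla 713 genes (5.15%) were called, and 492 were called in the same direction in both jaws, 22.3% of the mandible's and 69.0% of the maxilla's calls, with 4 in opposite directions. The genes called in mandible had a median absolute difference of 0.59 there and a median of 0.23 in maxilla along the mandible direction. Of them, 89.2% had the same sign in maxilla, against 71.0% of all tested genes. Genes called in maxilla had a median absolute difference of 0.73 there and a median of 0.66 in mandible along the maxilla direction. In each case the jaw that chose the genes had the larger median, which the choice itself favours. Across all tested genes the end differences of the 2 jaws had a Pearson correlation of 0.66. The difference between the jaws passed for 183 genes (1.32%), 71 more positive (0.513%) and 112 more negative (0.809%) in mandible, and for 428 with the replicate block. It passed for 51 with the arrays compared fitted alone, and for 101, 95 and 47 without replicate 1, 2 or 3 of the mutant mandible at both ends. Without a single array the count was 94 to 369, being 369 without maxilla distal array 1, 115 without mandible proximal array 1, 105 without mandible distal array 3, 94 without mandible proximal array 3 and 114 without maxilla distal array 3.

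Sfrp4 read 11.46, 11.74 and 11.73 in distal and 7.98, 8.07 and 8.55 in proximal mandible, against 8.23, 8.17 and 8.69 in distal and 7.80, 8.53 and 8.47 in proximal maxilla of mutants. Only the distal mandible stood apart, a jaw difference of 3.34 ± 0.412 (adjusted p = 0.000347). Barx1 was at 10.70, 10.97 and 11.60 in distal and 11.42, 11.20 and 11.70 in proximal mutant maxilla, where the ends overlapped, against the gap of over 2 in mandible (-2.99 ± 0.333, adjusted p = 0.000246). Dmp1 was at 6.80 to 7.36 in distal and 6.77 to 7.80 in proximal maxilla, so among these 4 mutant groups its level was high in proximal mandible alone (-3.47 ± 0.454).

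Fam155a, a channel accessory gene, was higher distally in mandible (1.63) and did not pass in maxilla (-0.55), a jaw difference of 2.18 ± 0.239. Masp1 of the complement lectin pathway (1.81), the secreted Tafa4 (1.64), Gdf10, a TGF-beta family ligand (1.30), and Olfm1 (1.09) were the other leading positive genes, and Gdf10 was the one with a called opposite difference in maxilla (-0.46, adjusted p = 0.0236). On the negative side were the lipase Lipi (-2.27), the citrate transporter Slc13a5 (-2.23), Lpar3 (-2.05) and Pcolce, an enhancer of procollagen processing (-1.0). These 4 differed by -0.17 to 0.00 in maxilla. Hand2 (0.52, adjusted p = 0.985) and Dlx6 (-0.22) did not pass for the jaw difference, and both were called at the ends of the maxilla too (1.63 and -1.40).

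**Figure D5:**
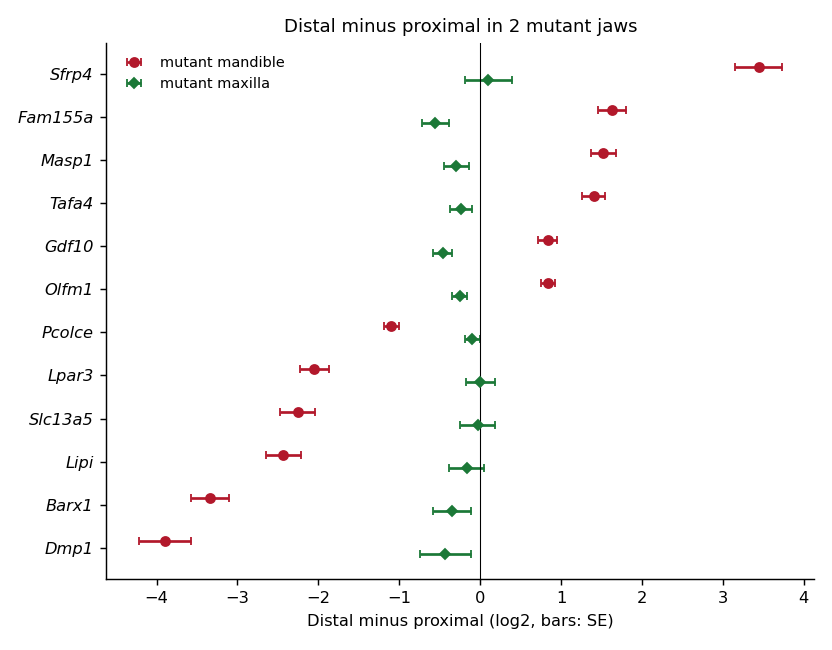
Distal minus proximal difference (log2) in mutant mandible (red circles) and mutant maxilla (green diamonds). The 6 genes with the smallest adjusted p for the jaw difference in each direction are drawn. Bars show the SE of the limma fit, with the spread pooled over all 8 groups (n = 3 arrays per end). Mandible values lie between -3.90 and 3.44, and maxilla values between -0.55 and 0.10.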

How the data were processed

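RNA (5 µg, RNeasy) was hybridised to Affymetrix mouse genome arrays, 24 in 8 groups of 3. The deposited values are log2 intensities, and the submitters' processing notes name RMA as the authors' method. Its version, and which arrays were normalized together, is not stated. They ran from 3.08 to 15.01, with array medians of 7.00 to 7.08, and the number of arrays limits the precision. Of 45101 probe sets, 34958 had 1 gene symbol, 932 several and 9211 none (34754 identifiers matched RefSeq GRCm38.p6). Each of 18194 genes was its brightest probe set, and 13850 above the 40th percentile of an array on at least 3 arrays were tested. limma 3.58.1 (R 4.3.3) fitted 1 coefficient per group over all 24 arrays (16 residual degrees of freedom), with Benjamini-Hochberg adjustment over all genes, and was tested on simulated data. Same-numbered distal and proximal arrays had correlated deviations from their group means (mutant mandible 0.54, 0.69 and 0.32, control mandible 0.49, 0.44 and 0.41, mutant maxilla 0.68, 0.68 and 0.64), so the numbers were taken as pairs, from the values and not the labels. Named genes are the 15 largest rises and falls with no overlap of arrays, up to 4 of smallest adjusted p per list and direction with the genes that name a list, the 3 smallest p per direction for genotype, 6 for jaw, the 5 largest rises and falls called in controls alone, and Tgfbr2. Other genes named as list members were chosen after their values were seen. Members and lists were chosen with earlier results of these data known. Alternatives covered the block (statmod 1.5.0), the filter, probe sets, normalization, variance trend, arrays fitted, RNA quality and left-out arrays.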

Additional observations from a re-analysis of the deposited data

Results flagged for a closer look

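The distal minus proximal effect differed between mandible and maxilla of mutants for 183 genes by a test of the difference itself (limma, adjusted p under 0.05). The count was 51 with the arrays compared fitted alone and 47 without replicate 3 of the mutant mandible at both ends. The leading genes with a more positive effect in mandible were Sfrp4 at 3.34, Fam155a at 2.18, Masp1 at 1.81, Tafa4 at 1.64, Gdf10 at 1.30 and Olfm1 at 1.09 on the log2 scale. Those with a more negative effect were Dmp1 at -3.47, Barx1 at -2.99, Lipi at -2.27, Slc13a5 at -2.23, Lpar3 at -2.05 and Pcolce at -1.0.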

How the results depend on the processing

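With the replicate number as a fixed block, which uses the pairing of distal and proximal arrays, 3943 genes passed in mutant mandible and 3298 in control mandible, and 428 for the jaw difference, and no named mutant call was lost. The set as a random block gave 3760, 3234 and 531, and the Gapdh 3' minus 5' difference as covariate 3525, 3259 and 358. With mutant mandible by set 2 alone, chosen after seeing the data and leaving 1 array per end, whose spread is assumed to be that of the other groups, 246 genes passed in mutant mandible and 7 for the jaw difference. With only the arrays compared, 51 passed for the jaw difference. For the genotype difference, 4 genes passed with only the arrays compared and 7 with the random block. Leaving out replicates gave 1189 to 2689 genes in mutant mandible, 1240 to 1511 in control mandible, 0 to 1 for the genotype difference (Dmp1 or Fbln5) and 47 to 369 for the jaw difference, with 94 to 369 for single arrays. Without replicate 1 of mutant mandible at both ends 1383 genes passed in mutant mandible and 101 for the jaw difference, and without replicate 2 the jaw count was 95. No named gene changed direction in any setting run. Of 153 named genes of the mutant mandible, 108 kept their call in every setting other than set 2 alone, and 44 with it included. By set 2 alone 0 of 33 muscle and 6 of 22 epithelial markers passed. The causes of these changes were not tested. Genes dim on every array were not tested.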
